A study of Homo sapiens with 4 samples.

Results

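The polyamine enzymes and their regulators were followed by 8 messages, ODC1, OAZ1, OAZ2, AZIN1, AMD1, SRM, SMS and SAT1. They were taken by gene symbol from a table of 17064 rows, and each symbol had a single row. The cells carried the label KYSE-150, which is an established cancer line from squamous carcinoma of the esophagus, with or without a stably expressed hairpin that targets NSUN6, an RNA methyltransferase that forms 5-methylcytosine. The 4 groups, with 1 library each, were knockdown-labelled polyribosome RNA, knockdown-labelled input RNA, control polyribosome RNA and control input RNA. Control cells are described only as having normal NSUN6 expression. All cells received cycloheximide, which halts elongating ribosomes, and polyribosomes were pelleted through a single sucrose layer, so messages were not separated by their number of ribosomes. Values are FPKM as the authors deposited them, that is, fragments scaled to transcript length and to the mapped fragments of the library. With 1 library per group no difference has a replicate check, no p-value was computed and no error can be given. The labels do not say whether the 2 knockdown-labelled libraries came from 1 culture. All 8 messages passed a filter on low values, a 4-library mean of 5 FPKM or more, as did 7379 rows in all.

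Polyamines are small positively charged molecules that bind nucleic acids and are needed for growth. Ornithine decarboxylase, from ODC1, makes putrescine. S-adenosylmethionine decarboxylase, from AMD1, makes the donor from which spermidine synthase (SRM) and spermine synthase (SMS) extend putrescine to spermidine and then to spermine. The acetyltransferase SAT1 marks spermidine and spermine for export or breakdown. Antizymes, from OAZ1 and OAZ2, bind ornithine decarboxylase and carry it to the proteasome, and the antizyme inhibitor AZIN1, a relative of ornithine decarboxylase without its activity, takes antizyme away from it. Several of these messages are controlled in translation: full antizyme is made only when ribosomes shift frame at a stop codon, a step that polyamines favour, and a short frame ahead of the AMD1 coding sequence stalls ribosomes when polyamines are plentiful.

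The frameshift sites of the antizymes and short upstream frames found in 3 other members are shown here. The frameshift sites were located in GENCODE 29 (GRCh38) as the single base that the annotated coding sequences of OAZ1 and OAZ2 leave out, and the upstream frames as an ATG and its stop codon in the annotated 5′ leader. Only upstream frames of at most 30 bases, within a single exon and ending before the coding sequence, are shown. AZIN1 was left out of this search. Whether the ODC1 and SAT1 frames control translation was not tested. The processing notes name hg19 and GRCh37, so these positions are not on the build named there. In the antizyme sequences the capitals mark the last codon read before the shift and the stop codon, whose first T is skipped. In the others they mark the start and stop codons of the upstream frame.
OAZ1: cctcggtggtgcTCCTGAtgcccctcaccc
OAZ2: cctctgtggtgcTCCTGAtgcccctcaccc
AMD1: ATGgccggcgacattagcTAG
ODC1: ATGgcgacccgccggtgctataagTAG
SAT1: ATGgtgccagccTGA
The OAZ1 site lies in the coding sequence at chr19:2271428-2271457 on the plus strand and the OAZ2 site at chr15:64691501-64691530 on the minus strand. These 2 windows of 30 bases differed at 1 position, G5T, counted from the 5′ end with the OAZ1 base first. The AMD1 frame lies in the 5′ leader at chr6:110874796-110874816 (plus strand), the ODC1 frame at chr2:10448351-10448377 (minus strand) and the SAT1 frame at chrX:23783235-23783249 (plus strand).

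Facts of the libraries that touch the results come first. The last line of the table repeats column names in another form. It calls the control columns K150 and shGFP, and the other columns K30 and shMettl1. By that line the control and knockdown-labelled columns would differ in the K150 or K30 name as well as in the hairpin. A difference of cells and an effect of the hairpin could then not be told apart in any comparison of the cell states below. That line names the last pair of columns input first, whereas the header, which matches the sample labels, names polyribosome RNA first. The authors' deposited ratios follow the header, which was used here. Results are therefore called knockdown-labelled, and values under the exchanged order are given for the members' differences that turn direction. NSUN6 was at 0.38 FPKM in knockdown-labelled polyribosome RNA and 3.83 FPKM in knockdown-labelled input, against 10.13 and 8.85 FPKM in the control fractions. METTL1 was lower too, at 8.32 and 5.98 FPKM against 14.32 and 13.02 FPKM. Polyribosome and input RNA were less alike in knockdown-labelled cells (Pearson's r 0.829 on the log2 scale, across 7379 genes that are not replicates) than in control cells (0.983). Of 7 squamous markers, 5 were at 1 FPKM or more in knockdown-labelled polyribosome RNA and 6 in each other library, but their summed level was 92.6 and 133 FPKM in the knockdown-labelled fractions and 1546 and 1210 FPKM in the control fractions. SOX2 was at 8.28 and 39.5 FPKM in the knockdown-labelled fractions and 0.27 and 0.31 FPKM in the control fractions. Most of the difference in the sum was KRT5, at 0.70 and 0.45 FPKM in the knockdown-labelled fractions and 1162 and 906 FPKM in the control fractions, while KRT6A was at 40.0 and 34.3 FPKM against 39.8 and 29.5 FPKM. The 5 markers of epithelium in general summed to 6744 and 5419 FPKM in the knockdown-labelled fractions and 4297 and 3207 FPKM in the control fractions, and KRT19 among them was at 1973 and 1488 FPKM against 1.02 and 0.07 FPKM. Fibroblast and endothelial markers summed to at most 2.91 FPKM in any library. The immune markers summed to 10.2 and 8.55 FPKM in the knockdown-labelled fractions and 71.5 and 74.1 FPKM in the control fractions, mostly from CD68. The part of these markers in the results was not tested.

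ODC1, the first enzyme of the pathway, was at 120.1 FPKM in knockdown-labelled polyribosome RNA and 72.4 FPKM in knockdown-labelled input, against 41.45 FPKM in control polyribosome RNA and 56.5 FPKM in control input. Both knockdown-labelled values lay above both control values, as for 26.1% of all genes past the filter. On polyribosomes the knockdown-labelled level was 2.90 times that of control, a log2 difference of 1.51, and in input it was 1.28 times, a difference of 0.35. These differences, like all below, are of log2(FPKM + 1). In bulk RNA, fewer cells expressing a gene and less RNA per cell cannot be told apart. The cell states also differed in how the ODC1 message divided between fractions. Its log2 translation efficiency, the difference between polyribosome and input RNA, was 0.72 in knockdown-labelled cells and -0.44 in control cells, and the change was 1.16. With the knockdown-labelled columns exchanged, that change was -0.29, while ODC1 was still above control in both fractions, by 1.08 in input and 0.79 on polyribosomes.

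The antizyme messages differed little between cell states in input RNA. OAZ1, the most widely expressed antizyme, was at 946 FPKM in knockdown-labelled polyribosome RNA and 516 FPKM in knockdown-labelled input, against 564 and 569 FPKM in the control fractions. The knockdown-labelled polyribosome library thus stood above the other 3, which lay close together. The log2 difference was 0.74 on polyribosomes and -0.14 in input, and the efficiency was 0.87 in knockdown-labelled cells and -0.01 in control cells. OAZ2, a second antizyme, was at 63.5 and 40.9 FPKM in the knockdown-labelled fractions and 51.35 and 54.7 FPKM in the control fractions, so the cell states overlapped. Its efficiency was 0.62 in knockdown-labelled cells and -0.09 in control cells. Neither antizyme reached 2-fold in any of the 5 comparisons. With the median of all genes subtracted, OAZ1 passed it on polyribosomes, at 1.03, and in the change of efficiency, at 1.01. Polyribosome FPKM counts the message whether or not its ribosomes shift frame, so these values do not measure frameshifting. With the columns exchanged, the OAZ1 difference was -0.13 on polyribosomes and 0.73 in input, and the OAZ2 difference -0.32 on polyribosomes and 0.21 in input, so each turned direction. The changes of efficiency, 0.88 for OAZ1 and 0.71 for OAZ2, were then -0.86 and -0.53.

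AZIN1, which counters antizyme, was lowest where OAZ1 was highest. It was at 11.6 FPKM in knockdown-labelled polyribosome RNA and 50.2 FPKM in knockdown-labelled input, against 36.7 and 39.2 FPKM in the control fractions. The knockdown-labelled polyribosome value was 31.7% of control, and the knockdown-labelled input value was the highest of the 4. Its efficiency was -2.02 in knockdown-labelled cells and -0.09 in control cells, a change of -1.93. The level differences were -1.58 on polyribosomes and 0.35 in input. Under the exchanged order they were 0.44 and -1.67, and the AZIN1 change of efficiency was 2.11.

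AMD1, the source of the aminopropyl donor, was the lowest of the 8 messages in each library and the furthest apart between fractions. It was at 1.54 FPKM in knockdown-labelled polyribosome RNA and 23.2 FPKM in knockdown-labelled input, against 9.56 and 15.6 FPKM in the control fractions. It was below input on polyribosomes of both cell states. Its efficiency was -3.25 in knockdown-labelled cells, where 0.854% of the 7379 genes were lower, and -0.66 in control cells, where 2.85% were lower. In the authors' deposited table, which adds 5 to each FPKM, the AMD1 ratio was 0.232 for knockdown-labelled and 0.706 for control cells. The change of AMD1 efficiency was -2.60 with the header's column order and 3.91 with the columns exchanged, so its direction depends on which column is which. The level differences, -2.06 on polyribosomes and 0.54 in input, were 1.20 and -2.71 with the columns exchanged. With 5 FPKM added in place of 1, the change was -1.61 in the header's order. The low control efficiency does not depend on the column order, and with 5 FPKM added it was -0.50.

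The 2 synthases that use this donor differed between cell states in opposite directions. SRM, spermidine synthase, was at 370.3 and 182 FPKM in the knockdown-labelled fractions and 118 and 135 FPKM in the control fractions, with polyribosome RNA first in each pair. SMS, spermine synthase, was at 35.1 and 68.3 FPKM in the knockdown-labelled fractions and 248 and 235 FPKM in the control fractions. The cell states did not overlap for either gene, as for 26.1% of all genes upward, like SRM, and 31.3% downward, like SMS. SRM was higher by a log2 difference of 1.65 on polyribosomes and 0.42 in input, and SMS was lower, at -2.79 and -1.77. SMS was at least 2-fold lower in each of the 4 pairs of a knockdown-labelled and a control library, which holds under either order of the columns. SRM efficiency was 1.02 in knockdown-labelled cells and -0.20 in control cells. SMS efficiency was -0.94 in knockdown-labelled cells and 0.08 in control cells, and SMS was the only one of the 8 messages above 0 in control cells. With the columns exchanged the efficiency changes, 1.22 for SRM and -1.02 for SMS, became -0.82 and 0.86.

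SAT1, the acetyltransferase of polyamine breakdown, showed the largest difference in level of the 8 in both fractions. It was at 22.8 and 23.45 FPKM in the knockdown-labelled fractions and 196 and 212 FPKM in the control fractions. The 2 fractions of each cell state lay close together and the cell states were far apart. Knockdown-labelled levels were 11.6% of control on polyribosomes and 11.1% in input, log2 differences of -3.05 and -3.12. In input, 1.48% of the 7379 genes were lower still. SAT1 efficiency was -0.04 in knockdown-labelled cells and -0.11 in control cells, a change of 0.07 with the header's order and 0.15 with the columns exchanged. The SAT1 difference was between -3.16 and -3.01 in all 4 pairs of libraries, so the order of the columns does not bear on it.

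**Figure D1:**
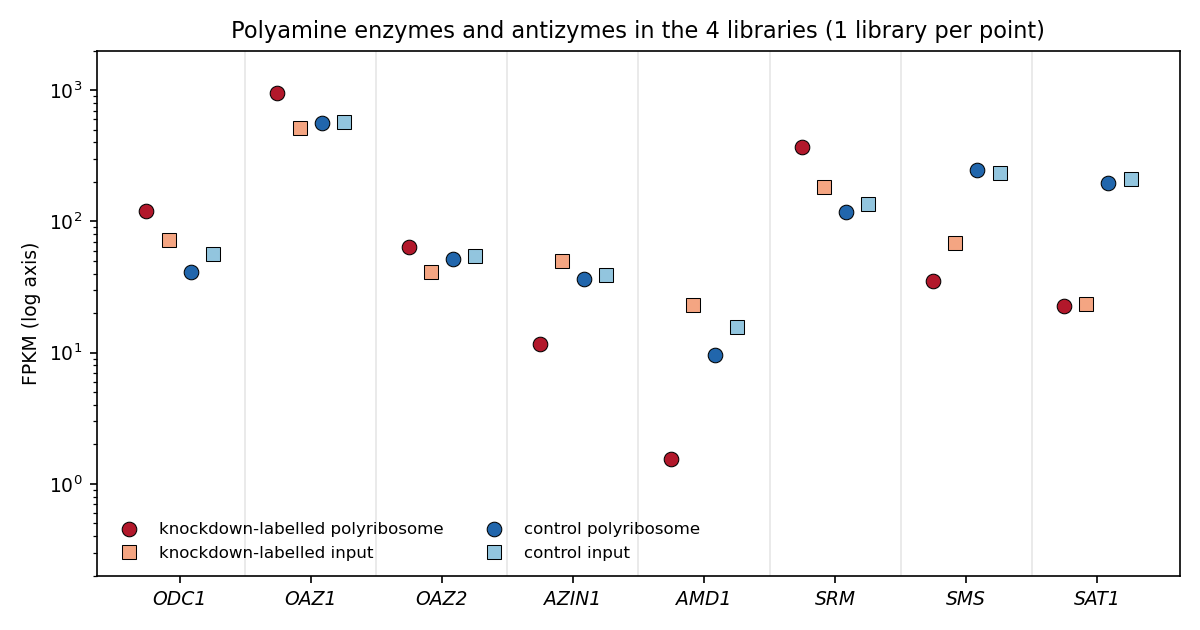
FPKM (log axis) of the 8 messages in each library, with 1 point per library (red and orange, knockdown-labelled; dark and light blue, control; circles, polyribosome; squares, input). ODC1 and SRM have both knockdown-labelled points above both control points, as do 26.1% of all genes. SMS and SAT1 have both below, as do 31.3% of all genes. AMD1 is at 1.54 FPKM in knockdown-labelled polyribosome RNA.

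In levels per length, OAZ1 was the highest of the 8 messages and AMD1 the lowest in each of the 4 libraries. SRM came next after OAZ1 in both knockdown-labelled fractions, ahead of ODC1. In both control fractions SMS came next, then SAT1, then SRM. ODC1 and SMS, at 72.4 and 68.3 FPKM, were near each other in knockdown-labelled input, as were ODC1 and OAZ2, at 56.5 and 54.7 FPKM, in control input. SAT1 and AMD1 were nearly level in knockdown-labelled input, at 23.45 and 23.2 FPKM. No spread is available to say which neighbours differ.

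Ratios between levels within a library, chosen after the values were seen, set enzyme messages against their counterparts. OAZ1 exceeded ODC1 by 7.87 times in knockdown-labelled polyribosome RNA and 7.13 times in knockdown-labelled input, against 13.6 and 10.1 times in the control fractions. The SRM level was 10.6 and 2.66 times that of SMS in the knockdown-labelled fractions, against 0.473 and 0.576 times in the control fractions, so the order of the synthases was opposite between cell states. The ODC1 level was 5.27 and 3.09 times that of SAT1 in the knockdown-labelled fractions, against 0.212 and 0.267 times in the control fractions. These ratios stay on opposite sides of 1 whichever knockdown-labelled column is the input. The ratio of ODC1 to AMD1 was 78.0 in knockdown-labelled polyribosome RNA and 3.12 in knockdown-labelled input, against 4.34 and 3.61 in the control fractions, and it stood apart in that polyribosome library alone. It rests there on AMD1 at 1.54 FPKM, with nothing added to either value, so its size is imprecise. With the columns exchanged, the ratio of 78.0 would belong to input.

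**Figure D2:**
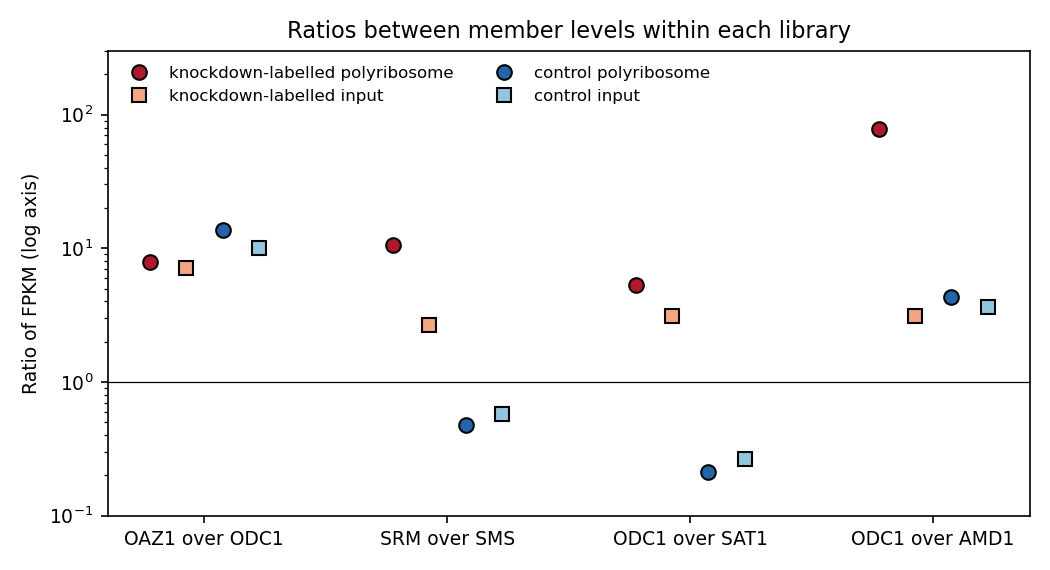
Ratios of FPKM between pairs of messages (log axis, line at 1) in each of the 4 libraries. SRM over SMS and ODC1 over SAT1 are above 1 in both knockdown-labelled libraries and below 1 in both control libraries, whereas ODC1 over AMD1 stands apart only in knockdown-labelled polyribosome RNA, at 78.0. AMD1 is at 1.54 FPKM in that library.

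The counts of members at least 2-fold apart are read against all 7379 genes. In input RNA, 0 of 8 messages were at least 2-fold higher in knockdown-labelled cells, where 13.2% of all genes were, and SMS and SAT1 were at least 2-fold lower, where 14.4% of all genes were. The median over the 8 was 0.11, against 0.01 over all genes. In polyribosome RNA, ODC1 and SRM were at least 2-fold higher (16.7% of all genes) and AZIN1, AMD1, SMS and SAT1 at least 2-fold lower (32.9% of all genes). The median was -0.64, against -0.28 over all genes. On polyribosomes relative to input, knockdown-labelled cells had SRM at least 2-fold higher (8.62% of all genes) and AZIN1 and AMD1 at least 2-fold lower (28.8% of all genes). Control cells had 0 of 8 in either direction, with 0% of all genes higher and 0.759% lower. There 7 of the 8 messages were below 0, as were 45.2% of all genes, with a median of -0.10 against 0.03 over all genes. The change of efficiency was at least 2-fold upward for ODC1 and SRM (12% of all genes) and downward for AZIN1, AMD1 and SMS (30.1% of all genes), with a median of 0.39 against -0.12. Counts that hold in either order of the columns were added after the values were seen. SMS and SAT1 were at least 2-fold lower in all 4 pairs of libraries, as were 7.02% of all genes, and 0 of 8 were higher in all 4, against 6.57%. The cell states did not overlap for 2 messages that were higher (26.1% of all genes) and 2 that were lower (31.3% of all genes). In neither direction was lack of overlap more common among the 8 than over all genes. The 4 comparisons that involve knockdown-labelled cells share libraries with one another, so their counts are not independent.

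**Figure D3:**
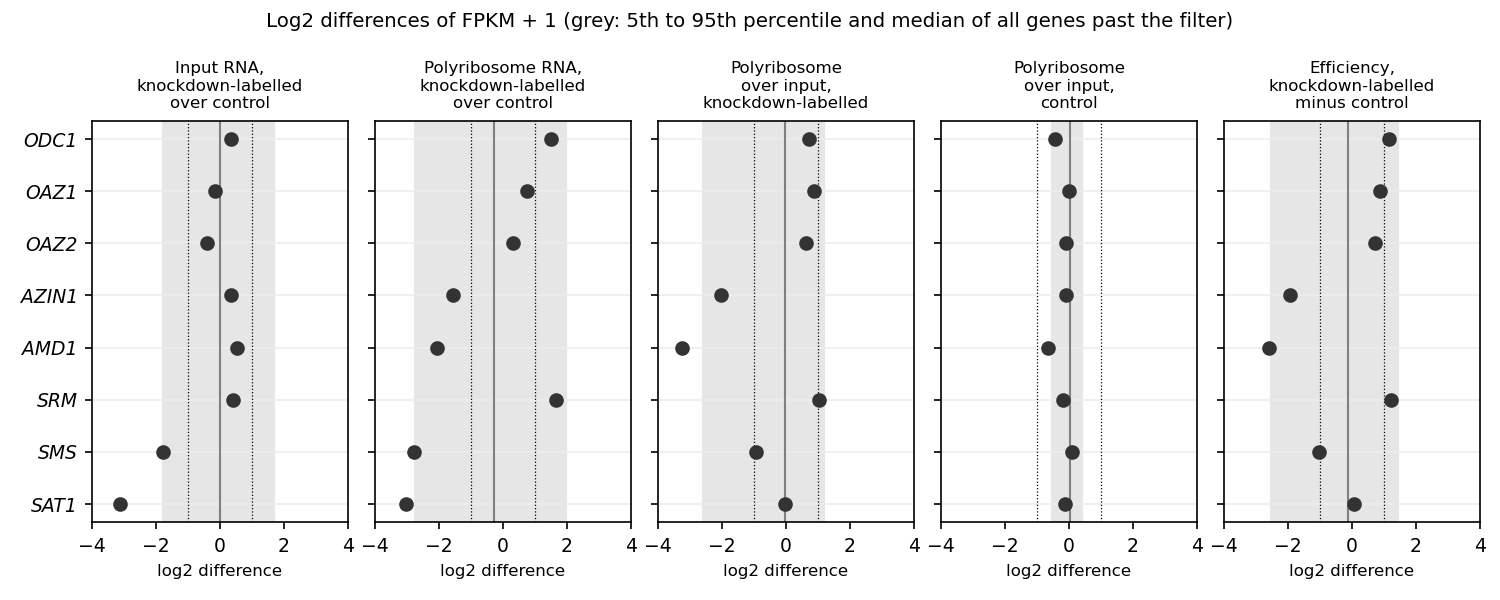
Log2 differences of FPKM + 1 for the 8 messages in the 5 comparisons, with dotted lines at 2-fold and, in grey, the median and the 5th to 95th percentile of all 7379 genes. SAT1 lies far to the left in both comparisons of cell states, and in control cells the 8 messages lie between -0.66 (AMD1) and 0.08 (SMS).

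The change of efficiency moved with the base composition of transcripts, among the members and over all genes, in a direction that the column order sets. In the header's order AMD1, with the lowest GC content of 38.0%, had the most negative change. AZIN1 had 42.3%, SAT1 43.8%, SMS 46.5%, ODC1 51.2%, OAZ2 52.8% and OAZ1 54.0%, and SRM had the highest, 63.7%, and the most positive change. Over 7346 genes with a matched transcript, Pearson's r of the change with GC content was 0.748 and Spearman's rho 0.786, a description across genes that share libraries. In knockdown-labelled cells alone the polyribosome to input difference had an r of 0.802 with GC content, against 0.060 in control cells. With the columns exchanged, r was -0.802 in knockdown-labelled cells by construction and -0.800 for the change, for which AMD1 then had the highest value, 3.91, and SRM, at -0.82, was near the lowest, OAZ1 at -0.86. Genes of like GC content give a closer setting, described here in the header's order. Among those within 1 percentage point of AMD1 in GC content, the median change was -2.02 and the lower quartile -2.44, and AMD1 itself, at -2.60, lay below both. Among those near AZIN1 the median was -1.79 and the lower quartile -2.30, with AZIN1 between them at -1.93. For SMS the median was -1.18, against its own -1.02. ODC1 and SAT1 lay above the upper quartile of such genes. ODC1 had a change of 1.16 where genes of like GC content had a median of -0.37 and an upper quartile of 0.10, and SAT1 one of 0.07 where the median was -1.63 and the upper quartile -0.85. OAZ1, at 0.88 against an upper quartile of 0.44, and OAZ2, at 0.71 against 0.30, were also above theirs, and SRM, at 1.22, was slightly above its upper quartile of 1.12.

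With a trend on GC content and transcript length removed, the change of efficiency was 1.30 for ODC1, 0.76 for SAT1, 0.59 for OAZ2 and 0.39 for OAZ1. It was -0.18 for SRM, -0.42 for SMS, -0.66 for AZIN1 and -0.73 for AMD1. The median of all genes was then -0.39, against -0.12 before, so SRM and SMS were close to it or above it. On polyribosomes ODC1 was still higher in knockdown-labelled cells, at 1.57, while SRM was at 0.44, AMD1 stood at -0.39 and AZIN1 at -0.46. The polyribosome median of all genes was -0.37 with the trend removed, so AMD1 and AZIN1 were close to it. SMS and SAT1 were then at -2.28 and -2.33. What makes GC content move with the knockdown-labelled fractions was not tested.

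**Figure D4:**
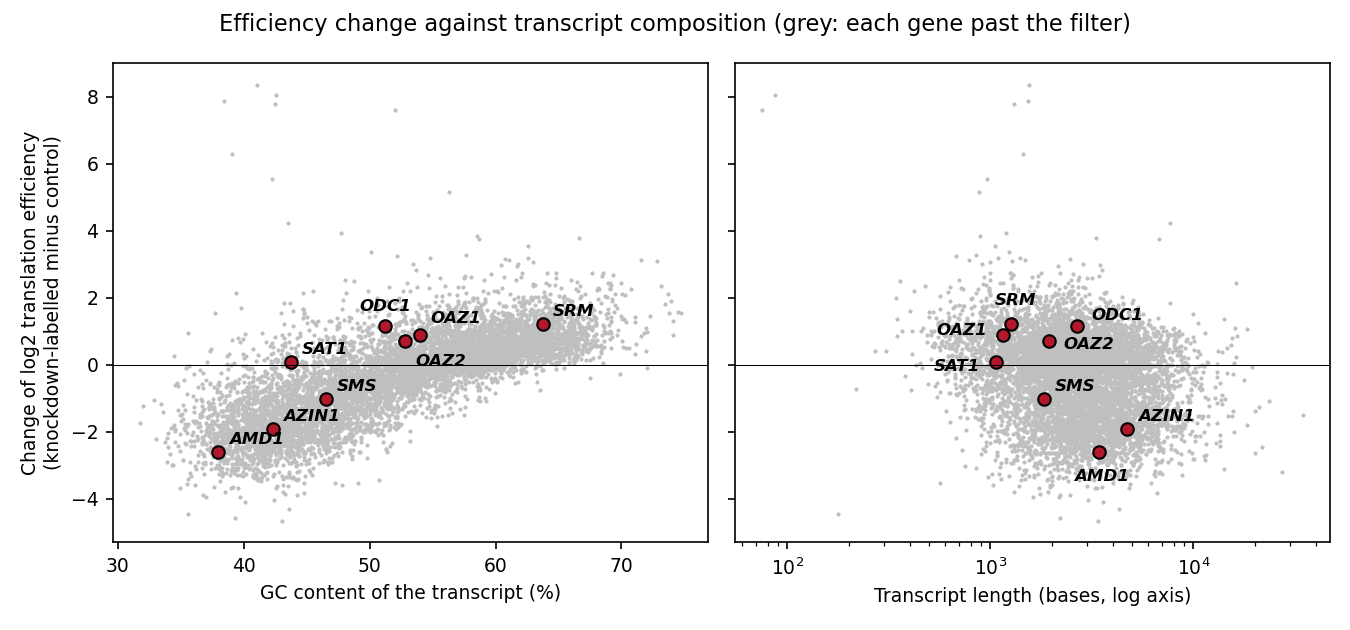
Change of log2 translation efficiency (knockdown-labelled minus control) against GC content of the transcript (left) and transcript length (right, log axis), with each gene past the filter in grey and the 8 messages in red. From AMD1 through AZIN1, SMS, OAZ2 and OAZ1 to SRM the change is higher at higher GC content. SAT1, ODC1, OAZ1 and OAZ2, and SRM slightly, lie above the upper quartile of genes near their own GC content.

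The annotated leaders of the 8 messages differed widely in length. The annotated 5′ leader was 79 bases in OAZ1 and 81 bases in SRM, and neither held an ATG. It was 179 bases in SAT1 with 2 ATG, 233 bases in OAZ2 with 2, 252 bases in SMS with 1, 336 bases in AMD1 with 1, 511 bases in ODC1 with 2 and 1164 bases in AZIN1 with 6. Only the sense strand was searched. An ATG stood in the leader of 48.0% of 7339 genes, whose median leader was 184 bases, and longer leaders hold more by length alone. Over these genes the median change of efficiency, in the header's order, was -0.03 with an upstream ATG and -0.19 without. These medians take no account of GC content, and whether an upstream ATG bears on the change was not tested. The leader that these cells use was not measured.

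Further genes of the polyamine pathway were taken from a list of 32, of which 31 had a row and 19 a mean past the filter. In input RNA of knockdown-labelled cells, 2 of the 19 (10.5%) passed 2-fold upward and 6 (31.6%) downward, against 13.2% and 14.4% of all genes. On polyribosomes the counts were 2 and 9, or 10.5% and 47.4%, against 16.7% and 32.9% of all genes. The medians were -0.48 and -0.93, against 0.01 and -0.28 over all genes. MAT2A, the catalytic subunit of the enzyme that makes S-adenosylmethionine, was at 49.1 and 90.0 FPKM in the knockdown-labelled fractions and 5.92 and 7.04 FPKM in the control fractions. Its differences were 2.85 on polyribosomes and 3.50 in input. ATP13A2, which moves polyamines out of the lysosome, was at 56.7 and 29.8 FPKM against 11.7 and 13.3 FPKM in control. These were the 2 of the 19 genes at least 2-fold higher in all 4 pairs of libraries, as were 6.57% of all genes.

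Several pathway genes were lower in knockdown-labelled cells in both fractions. ARG2, the mitochondrial arginase, was at 2.46 and 5.17 FPKM in the knockdown-labelled fractions and 43.8 and 34.5 FPKM in the control fractions. OAT, the ornithine aminotransferase, was at 5.18 and 22.9 FPKM against 91.8 and 68.6 FPKM. The arginine transporter SLC7A1 was at 8.92 and 12.1 FPKM against 30.7 and 32.6 FPKM. All 5 genes of methionine salvage, which recovers methionine from the by-product of spermidine and spermine synthesis, were at least 2-fold lower on knockdown-labelled polyribosomes, where 32.9% of all genes were, and 2 were so in input, where 14.4% were. With the columns exchanged, 2 of them were so on polyribosomes and 4 in input. MRI1, an isomerase of that route, was at 2.86 and 2.64 FPKM against 11.7 and 12.6 FPKM, and APIP, its dehydratase, at 2.93 and 13.6 FPKM against 48.1 and 39.8 FPKM. ARG2, OAT, SLC7A1, MRI1 and APIP were the 5 of the 19 genes at least 2-fold lower in all 4 pairs of libraries, as were 7.02% of all genes. SLC7A1 and APIP are named for this count, after their values were seen. The spermine oxidase SMOX was at 36.0 FPKM on knockdown-labelled polyribosomes and 17.7 FPKM in that input, against 19.5 and 20.4 FPKM in control. None of the 3 genes of hypusine formation past the filter, which turn spermidine into a modified residue of EIF5A or carry it, reached 2-fold in input, on polyribosomes or in the change of efficiency. EIF5A itself was at 2087 and 1848 FPKM against 2534 and 1924 FPKM.

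Efficiency was at least 2-fold lower for 7 of the 19 and at least 2-fold higher for 2, against 30.1% and 12% of all genes. With the columns exchanged the counts were 0 lower and 7 higher, against 6.29% and 27.8% of all genes. ENOPH1, a phosphatase of methionine salvage, had the lowest change, -2.42, followed by OAT at -2.37, and SMOX at 1.05 and ATP13A2 at 1.07 had the highest. In the exchanged order these were 2.13, 1.54, -0.92 and -0.73. With GC content and length removed, 4 of the 19 were past 2-fold downward and 0 upward, against 17.5% and 5.19% of all genes.

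**Figure D5:**
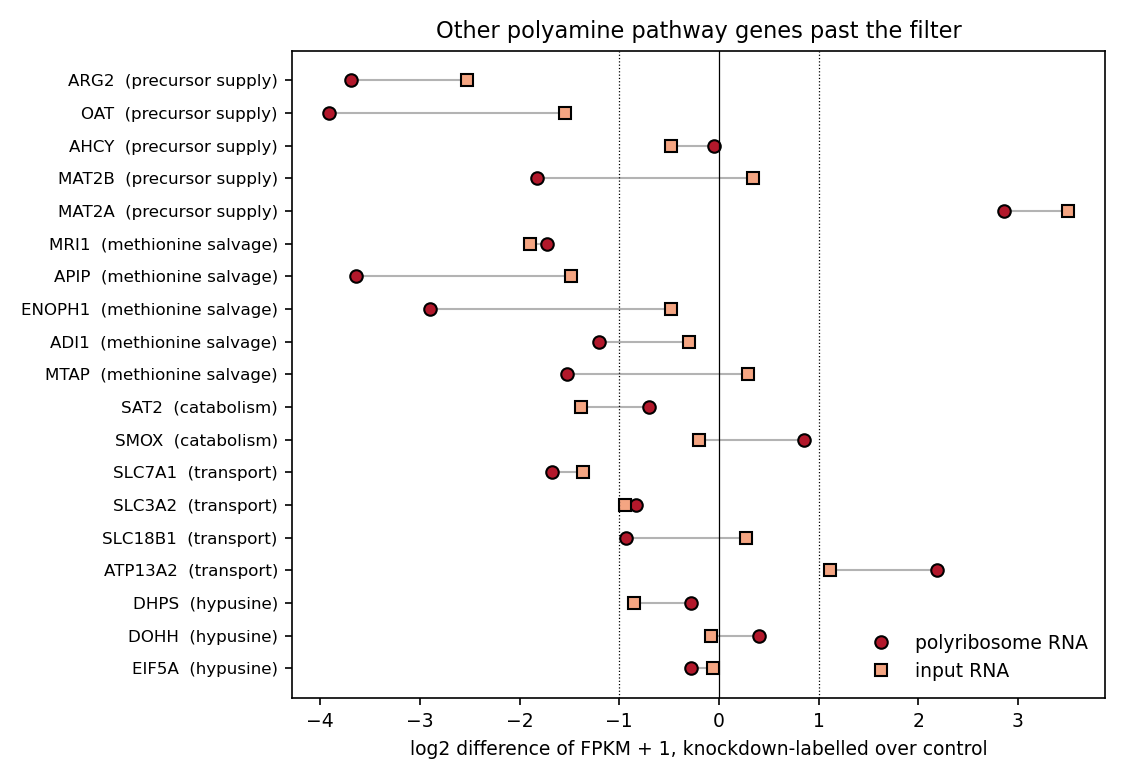
Log2 difference of FPKM + 1 (knockdown-labelled over control) for the 19 further pathway genes past the filter, grouped by role, in polyribosome RNA (circles) and input RNA (squares), with dotted lines at 2-fold. MAT2A and ATP13A2 are to the right in both fractions, and ARG2, OAT, APIP, MRI1 and SLC7A1 are to the left in both.

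Other messages known for upstream frames or frameshifting gave a group to set beside the members. Of 16, 13 passed the filter, and in input 5 (38.5%) passed 2-fold upward and 6 (46.2%) downward, against 13.2% and 14.4% of all genes. PEG10 and ATF5, among those upward, were below 5 FPKM in both control fractions. They passed the filter only through their knockdown-labelled values, so their upward calls follow in part from the filter. ERBB2 only just reached 2-fold, at 1.00. The upward count is therefore not read as a trait of these messages. In control cells 11 of the 13 were below 0 on polyribosomes relative to input, as were 45.2% of all genes. Their median was -0.17, against 0.03 over all genes. ATF4, the transcription factor of the integrated stress response, was at 380 and 180.2 FPKM in the knockdown-labelled fractions and 294 and 432 FPKM in the control fractions. DDIT3, a target of ATF4, was at 17.5 and 7.31 FPKM against 35.2 and 48.3 FPKM. Their changes of efficiency, 1.63 and 1.60, were the highest of the 13. PPP1R15A, which counters eIF2α phosphorylation, was lower in input, at 106 and 54.8 FPKM against 181 and 209.8 FPKM, a difference of -1.92. ATF5 and CEBPA, both transcription factors, were higher on polyribosomes. ATF5 was at 98.3 and 60.2 FPKM against 4.25 and 4.57 FPKM, and CEBPA at 70.0 and 29.9 FPKM against 8.16 and 10.5 FPKM. IFRD1, a transcriptional co-regulator, was at 2.80 and 8.22 FPKM against 13.5 and 14.8 FPKM. EPRS, the glutamyl-prolyl-tRNA synthetase, was at 0.68 and 8.53 FPKM against 20.7 and 22.5 FPKM, a change of -2.39. PEG10, whose protein is also made by a frameshift, was at 6.47 and 100.9 FPKM in the knockdown-labelled fractions, against 0.04 FPKM on polyribosomes and a listed 0 in input of control cells. In efficiency, 4 of the 13 passed 2-fold upward and 4 downward, against 12% and 30.1% of all genes. PEG10 was among those downward, and its control efficiency rests on values of 0.04 and 0 FPKM. With GC content and length removed, 2 of the 13 passed upward and 2 downward, against 5.19% and 17.5% of all genes. With the columns exchanged 4 passed upward and 0 downward, against 27.8% and 6.29% of all genes, and the changes were -0.52 for ATF4, -0.71 for DDIT3 and 2.62 for EPRS.

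Likeness of pattern was measured as the distance between profiles of log2(FPKM + 1) over the 4 libraries, each centred on its own mean. Within the set the closest pair was ODC1 and SRM, at a distance of 0.290, followed by OAZ1 and OAZ2 at 0.403. SRM and SAT1 were the furthest apart, at 4.19. Candidates were 5625 genes, each with a single row and a mean of 10 FPKM or more. Of these, the 3 nearest to ODC1 were INPP5E (0.0976), FAM53C (0.138) and RPS10 (0.145). Nearest to OAZ1 were RNF166 (0.0390), TNK2 (0.0488) and RABAC1 (0.0688). Nearest to AMD1 were PTPN2 (0.169), NAP1L1 (0.259) and SF3B1 (0.267), and nearest to SAT1 were L1CAM (0.147), RAC2 (0.168) and AXL (0.192). With 4 points per profile, many genes lie close to any one of them.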

How the data were processed

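The authors deposited FPKM per gene symbol for 4 poly(A) RNA libraries and, per the labels, a ratio of polyribosome to input FPKM, in which the values show 5 added to both (largest gap 5e-10). The submitters' processing notes name TopHat, hg19 and GRCh37. On the counting tool, the annotation and reads shared with pseudogenes, nothing is given in the sources used here. The depth is unknown, so no interval was computed. Of 17064 rows, 28 name no gene.

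Differences of log2(FPKM + 1) were computed with Python 3.11.15 and pandas 2.3.3, and a count at 2-fold stood in for a test. GC content, length and leaders came from 1 GENCODE 29 transcript per gene, matched for 99.6% of 7379 genes. Named genes were NSUN6, the 8 members, the 2 highest and 2 lowest of each list per comparison and the 3 nearest profiles for 4 members, with METTL1, cell markers, EIF5A, SLC7A1 and APIP added after their values were seen. Members and lists were chosen with earlier results of these data known. Alternatives were pseudocounts of 0.1 and 5, a filter at 1 FPKM or none, exchanged columns, centring, and removal of a quadratic trend on GC content and length. The computation was tested on simulated data.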

Additional observations from a re-analysis of the deposited data

Results flagged for a closer look

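In the header's order, the polyribosome to input difference had opposite signs in the 2 cell states for 5 messages. It was 0.72 in knockdown-labelled and -0.44 in control cells for ODC1 (difference 1.16), 0.87 and -0.01 for OAZ1 (0.88), 0.62 and -0.09 for OAZ2 (0.71), 1.02 and -0.20 for SRM (1.22), and -0.94 and 0.08 for SMS (-1.02). The difference between cell states had opposite signs in polyribosome and input RNA for 4 messages. It was 0.74 on polyribosomes and -0.14 in input for OAZ1, 0.30 and -0.41 for OAZ2, -1.58 and 0.35 for AZIN1 (difference -1.93), and -2.06 and 0.54 for AMD1 (-2.60). None of these differences was tested, since there is 1 library per group, and the control values for OAZ1 and OAZ2 are close to 0. The share of all genes with such signs was not computed, so these counts are not read as a trait of the members. In control cells the 5th to 95th percentile of all genes was -0.53 to 0.41, so signs there can turn on small differences. With the columns exchanged, the polyribosome to input difference was on the same side of 0 in both cell states for each of the 5. That follows by construction, since the exchange only turns the knockdown-labelled sign. For the 4 messages, the signs in polyribosome and input RNA stayed opposite, each turned round.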

How the results depend on the processing

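The filter, the pseudocounts and centring left each count of members at 2-fold within 1.5 times. Centring brought OAZ1 past 2-fold upward on polyribosomes, at 1.03, and in the change of efficiency, at 1.01. Of all genes, 22.8% and 15.2% were then so. The SMS change of efficiency fell short of 2-fold with centring, at -0.90, and with a pseudocount of 5, at -0.95. With the knockdown-labelled columns exchanged, input RNA had 2 members higher and 4 lower (0 and 2 with the header's order), and polyribosome RNA 1 higher and 2 lower (2 and 4). Of all genes, 15.9% were then higher and 31.8% lower in input, and 12.7% and 14.0% on polyribosomes. Knockdown-labelled polyribosome over input had 2 higher and 1 lower (1 and 2), against 28.8% and 8.62% of all genes. The change of efficiency had 0 lower (3), against 6.29%. By construction the exchange turns each knockdown-labelled efficiency round: AZIN1 went to 2.02, AMD1 to 3.25 and SRM to -1.02. The changes of efficiency were then -0.29 for ODC1, 2.11 for AZIN1, 3.91 for AMD1, -0.82 for SRM and 0.86 for SMS, and the polyribosome differences 0.44 for AZIN1 and 1.20 for AMD1. With GC content and length removed, polyribosome RNA had 1 member higher and 2 lower, against 10.3% and 26.1% of all genes. Knockdown-labelled polyribosome over input had 0 and 1, against 3.01% and 14.3%, and the change of efficiency 1 and 0, against 5.19% and 17.5%. SRM turned to -0.37 for the knockdown-labelled efficiency and to -0.18 for its change, and the cause was not tested. The SAT1 and SMS differences in level kept their direction and stayed past 2-fold in each alternative run. No paired analysis was possible because there is 1 library per group, and leaving out a library leaves no comparison. With the depth unknown, the precision of low values, such as AMD1 at 1.54 FPKM, cannot be stated.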
